A study of Mus musculus with 282 samples.

Results

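Avp and Oxt, the genes for vasopressin and oxytocin, were examined in the hypothalamus of male mice. They were chosen by name: every gene and transcript row that the merged gene models call Avp or Oxt was taken, which gave 2 loci of 14079 and 9 transcripts of 51024, of which 6 are Avp and 3 are Oxt. The mice come from the HMDP, the hybrid mouse diversity panel, which joins classical inbred strains with recombinant inbred ones, and within a strain the animals are nearly identical genetically. All were males fed a high fat, high sugar diet, with no chow-fed group. RNA-seq libraries were made from whole hypothalami, so no nucleus was separated. Of 282 deposited libraries, those of 2 CXB-6/ByJ mice (OB-273 and OB-274) differed by less than the sampling noise. Among 116327 rows of genes, transcripts, start sites and coding sequences, 87834 were above 1 FPKM in both. In all of these rows the FPKM values had a ratio of 1.00489 to 1.00491. No row was at 0 in 1 of the 2 libraries alone. They were counted as 1 sample, with their mean, so every n over all mice is 1 below 282. The labels give no age. All mice but 1 fall into 99 strains, with 3 mice in 84 strains, 2 in 13 and 1 in 2. The strains comprise 25 classical inbred strains (71 mice) and 4 recombinant inbred sets, each derived from C57BL/6 and a second parent. The sets are BXD (43 strains, 126 mice, from DBA/2J) and AXB/BXA (18 strains, 47 mice, from A/J). The others are CXB (7 strains, 20 mice, from BALB/c) and BXH (6 strains, 16 mice, from C3H/HeJ). The labels do not name the founders. The labels of mouse OB-627 name 2 different strains. It entered no comparison between strains, apart from alternatives that placed it in either of them.

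Vasopressin and oxytocin are short peptide hormones made as larger precursors by the magnocellular neurons of the paraventricular and supraoptic nuclei, which release them into the blood from the posterior pituitary. Vasopressin makes the kidney retain water, and oxytocin drives milk ejection and uterine contraction. Both also act within the brain, on social behaviour, stress responses and food intake. Vasopressin is made in addition by neurons of the suprachiasmatic nucleus, the central circadian clock. In each precursor the hormone is followed by a neurophysin, a carrier protein that binds it in the secretory granule, and the vasopressin precursor also ends in a glycopeptide called copeptin.

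Both genes lie on chromosome 2 of the mm10 build, tail to tail, with 3565 bases between their 3′ ends. The known Avp transcript (TCONS_00208076) runs on the minus strand from 130580620 to 130582554 and the known Oxt transcript (TCONS_00194416) on the plus strand from 130576173 to 130577054, each in 3 exons. The codons of the hormone itself lie in exon 1 of both genes. They are shown because they are what sets the hormones apart: 5 of these 27 bases differ. The codons are in capitals, with 30 coding bases on either side (coding strand, GENCODE transcripts on GRCm38; Avp chr2:130582416-130582502, minus; Oxt chr2:130576237-130576323, plus). The 9 bases right after the capitals encode Gly-Lys-Arg in both genes, the signal at which the precursor is cut and the hormone amidated.
Avp: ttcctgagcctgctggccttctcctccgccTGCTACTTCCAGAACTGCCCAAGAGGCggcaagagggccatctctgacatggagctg
Oxt: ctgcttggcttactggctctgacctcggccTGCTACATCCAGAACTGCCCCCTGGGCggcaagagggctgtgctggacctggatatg

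Exon 2 encodes the core of the neurophysin and is nearly the same in both genes, which bears on how well short reads can be told apart. Of its 202 bases, 193 are the same (95.5%), with 1 run of 125 identical bases. The 9 bases that differ are in capitals (Avp chr2:130581056-130581257, minus; Oxt chr2:130576591-130576792, plus).
Avp: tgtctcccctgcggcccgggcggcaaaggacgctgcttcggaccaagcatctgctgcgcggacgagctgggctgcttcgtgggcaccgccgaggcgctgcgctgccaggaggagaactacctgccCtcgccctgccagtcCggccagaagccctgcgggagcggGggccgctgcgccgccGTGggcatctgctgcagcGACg
Oxt: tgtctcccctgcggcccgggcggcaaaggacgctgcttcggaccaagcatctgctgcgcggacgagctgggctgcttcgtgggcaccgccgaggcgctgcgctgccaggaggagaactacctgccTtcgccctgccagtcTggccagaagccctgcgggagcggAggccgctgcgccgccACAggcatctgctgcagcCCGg
The reads were pairs of 50 bases. Of the windows of 50 bases in the known Avp transcript, 78 (14.8%) also occur in Oxt, and the same 78 are among the 488 windows in Oxt. A read from these windows is assigned by its mate or shared between the genes, so part of each level is uncertain. How much of either level, or of their covariation, comes from this sequence was not tested.

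The sequence before each start is shown because the levels of both genes are compared below and because these windows carry short motifs that transcription factors are known to bind. The windows are the 250 bases before the RefSeq start on GRCm38 (Avp chr2:130582589-130582838, minus; Oxt chr2:130575919-130576168, plus), with motif matches in capitals. The motifs below were searched on both strands: CACGTG, the E-box bound by clock proteins; TGACC, a half-site of nuclear receptors (GGTCA on the other strand); and TGACGTCA, the cAMP response element. The E-box and the cAMP response element read the same on both strands, and no matches overlapped.
Avp: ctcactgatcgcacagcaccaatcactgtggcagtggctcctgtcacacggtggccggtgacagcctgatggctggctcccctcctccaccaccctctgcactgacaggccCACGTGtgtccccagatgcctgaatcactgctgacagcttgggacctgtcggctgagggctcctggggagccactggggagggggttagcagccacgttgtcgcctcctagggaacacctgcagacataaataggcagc
Oxt: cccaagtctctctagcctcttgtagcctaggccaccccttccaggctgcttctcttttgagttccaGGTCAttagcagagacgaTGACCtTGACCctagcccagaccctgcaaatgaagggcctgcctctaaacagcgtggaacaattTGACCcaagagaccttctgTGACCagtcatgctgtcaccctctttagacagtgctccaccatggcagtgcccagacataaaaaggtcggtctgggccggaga
The Avp window held 1 CACGTG, its first base at -139 from the start, and no TGACC. The Oxt window held 5 matches of TGACC or its complement, at -184, -166, -160, -102 and -83, and no CACGTG. TGACGTCA was in neither window. Among 32851 promoter windows of the same length, 6.02% held CACGTG, 35.2% held TGACC and 1.55% held TGACGTCA.

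Before the levels, 2 further points on the libraries bear on the results. One BXD-12/TyJ animal, mouse OB-547, stood apart from all others: its FPKM values (fragments per kilobase of transcript and mapped library size) summed to 792801, against a median of 337533 over mice, 75.6% of its reads mapped uniquely against a median of 91.2%, and 18707 transcripts were listed at 0 in it. Its summed level of 5 blood markers was the highest of all mice. The next highest FPKM sum, 463433, was that of mouse OB-422 of strain CXB-3/ByJ. In addition, 18 libraries had over 10000 unannotated isoforms listed at 0, between 10679 and 11724 of 21234, against at most 8083 in all others. They were all the mice of BXD-9/TyJ, BXD62, BXD70, BXD75, BXD85 (3 each) and BXHA1 (2), and 1 of the 3 mice of BXD87. Results below are given with and without OB-547, OB-422 or the 18 libraries where their call or size turned on them.

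The tissue label was checked by marker genes. Of 8 hypothalamic markers 6 were in the table, all above 0 in every mouse, among them Otp, a transcription factor needed for the paraventricular and supraoptic neurons, with a median of 11.1 FPKM. Markers of adjoining tissue were present as well. The thalamic gene Tcf7l2 had a median of 59.0 FPKM (5.49 to 99.1). Gh, growth hormone of the anterior pituitary, ranged from 0 to 14330 FPKM. Those of the markers that moved with Avp or Oxt are given with the results. In bulk tissue, fewer neurons of a type and less RNA in each neuron cannot be told apart.

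Both genes were among the most abundant transcripts of the hypothalamus. The Avp level was lowest at 69.7, had a median of 219 and was highest at 2493 FPKM, with a mean of 243 ± 161 (SD over all mice). The highest value was that of OB-547, the next was 785, and without OB-547 the mean was 234.65 ± 88.8 FPKM. Avp had rank 154 by mean and rank 165 by median of 14079 loci. For Oxt the lowest mouse had 90.7, the median was 232 and OB-547 again had the highest value, 2963 FPKM. The Oxt mean was 251.9 ± 179.8 (SD over all mice) and 242 ± 77.4 FPKM without OB-547, and Oxt had rank 140 by mean and rank 152 by median. These Oxt values are those of the row for its transcription start site, which equals the sum of its 3 transcripts. The gene row that holds Oxt also joins Ptpra, a tyrosine phosphatase, and Mrps26, a mitochondrial ribosomal protein, both upstream on the same strand. That row had a mean of 323.45 FPKM, of which the Oxt transcripts made up 77.9%. Libraries were unstranded, so a read gives no strand.

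Compared with 18 other hypothalamic neuropeptide genes on the FPKM scale, Oxt and Avp were in places 2 and 3 of 20 by median. Pmch, the precursor of the appetite-stimulating melanin-concentrating hormone of the lateral hypothalamus, was higher at 476 FPKM. Sst, somatostatin, followed at 160, then Hcrt, the precursor of the wake-promoting orexins, at 120, and Agrp, a feeding-stimulating peptide of the arcuate nucleus, at 118 FPKM. The Agrp value is that of a locus row that also joins Atp6v0d1, and the part of Agrp in it was not separated. Levels of mice overlapped between all of these neighbours in the order. Crh, corticotropin-releasing hormone of parvocellular paraventricular neurons, was far lower, with a median of 2.46 FPKM. Pomc was the most uneven, with a median of 24.2 but a mean of 272.8 FPKM and a highest mouse at 6851 FPKM. Pomc is also made in large amounts by the pituitary. The Oxt and Avp levels were close to each other in most mice. Oxt was above Avp in 61.6% of mice and in 63 of 99 strains, and the Oxt to Avp ratio had a median of 1.08, a lowest value of 0.363 and a highest of 2.09.

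The first question was whether strains differed. Strain differences were tested with limma over all 99 strains on log2(FPKM + 1), on which scale all fold changes and shares here are, and were summarised as the strain share, the part of the variance that lies between strains (the intraclass correlation). Both genes differed between strains. The strain share was 0.292 for Avp (limma, adjusted p = 6.23e-06) and 0.185 for Oxt (adjusted p = 0.00517). These are not particular to the 2 genes, since 74.9% of all genes and 49.6% of all start sites passed the same test, with median shares of 0.221 and 0.123. Without OB-547 the shares were 0.331 and 0.207. In 3 settings the mice numbered replicate 1, 2 or 3 of their strain were left out, called 1 mouse fewer per strain below. This left 181 mice of 97 strains, 183 of 99 and 196 of 99, since strains of 1 or 2 mice have no replicate 3. The Oxt share then ran from 0.134 to 0.210 and passed in none of 3 settings (adjusted p from 0.0701 to 0.161). Avp failed in 1 of 3 (share 0.185, adjusted p = 0.0685). Read pairs per library ran from 5886672 to 23402476, but the files give no read counts per gene, so no counting error could be set beside a value.

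Most of the variation lay between mice of a strain. The SD within strains was 0.46 for Avp and 0.43 for Oxt on the log2 scale, or 1.37-fold and 1.35-fold, and 0.41 and 0.38 without OB-547. The strain means spanned 4.53-fold for Avp and 4.15-fold for Oxt, and 4.42-fold and 2.90-fold without that mouse. In the order of strains by mean, 1 of 98 steps between neighbours exceeded the standard error of their difference for each gene, so the place of a strain in the order is loosely fixed. Without OB-547 it was 1 step for Avp and 0 for Oxt. Of the 4851 pairs of strains, 16.02% differed by over 2 standard errors for Avp and 10.4% for Oxt, and 18.7% and 12.1% without OB-547.

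**Figure D1:**
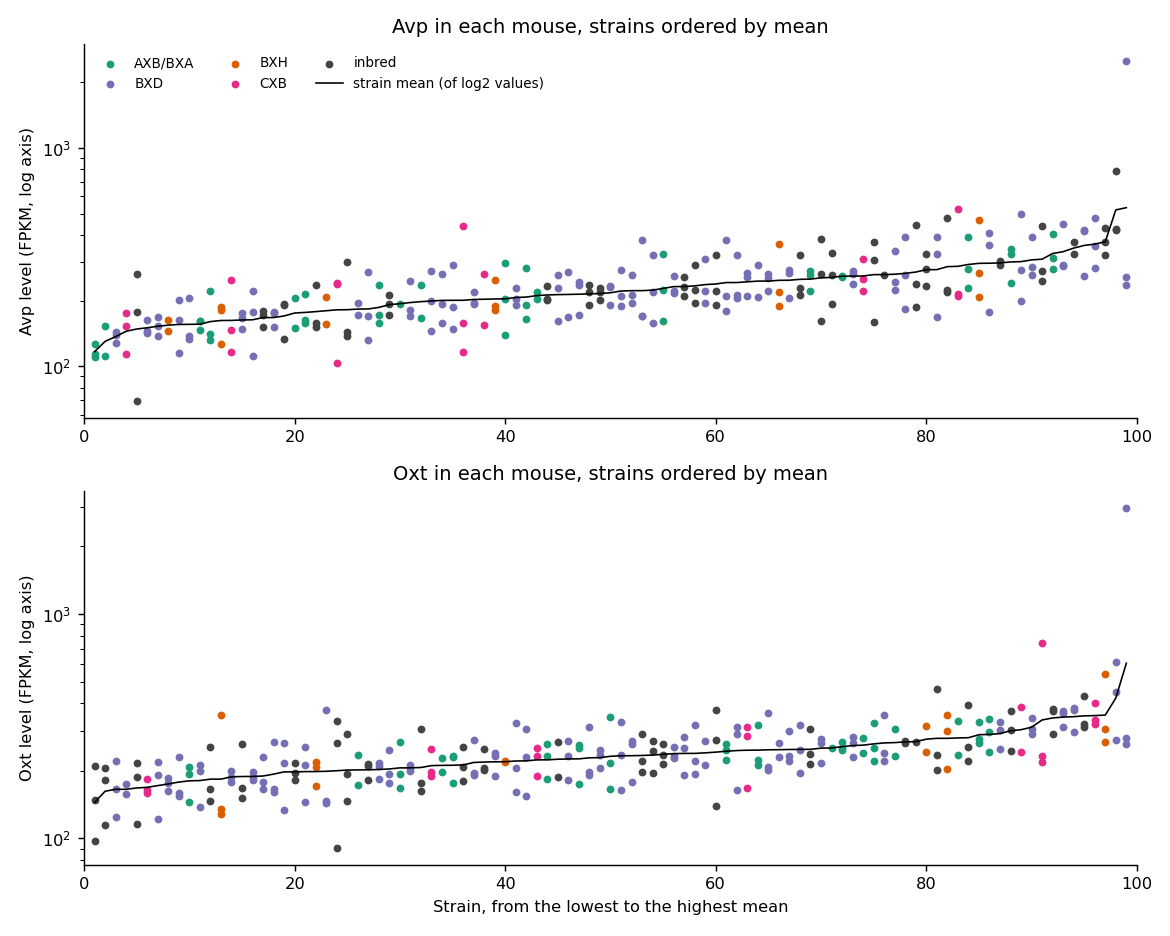
Avp (top) and Oxt (bottom) level of each mouse in FPKM on a log axis, with the 99 strains ordered by their mean and coloured by strain set. The black line is the strain mean of log2 values. Mouse OB-547 stands alone at 2493 FPKM for Avp and 2963 FPKM for Oxt, and mice of neighbouring strains overlap along the whole order.

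The lowest Avp mean was that of AXB-13/PgnJ, whose 3 mice had 110, 114 and 126 FPKM. BXA-12/PgnJ followed with 111 and 153, then BXD-36/TyJ with 128, 139 and 143 and CXB-7/ByJ with 114, 152 and 174.97 FPKM. MA/MyJ came next, but its mice were spread from 69.7 through 177 to 263 FPKM. At the other end, BXD-12/TyJ was first only through OB-547: its other 2 mice had 236 and 255 FPKM, near the median of all mice. KK/HlJ, an inbred strain used as a model of obesity and diabetes, came next with 419, 426 and 785 FPKM. All 3 KK/HlJ mice were above every mouse of the 4 lowest strains. SEA/GnJ had 322.03, 370 and 430 FPKM, BXD60 had 282, 354 and 475, and BXD64 had 259, 418 and 422.4 FPKM. None of these strains overlapped with AXB-13/PgnJ, which is what choosing both ends of an order gives and was not tested.

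The lowest Oxt means belonged to AKR/J with 97.0, 148 and 211 FPKM and NON/LtJ with 114, 182 and 206 FPKM. BXD85 (124, 165 and 220.6), BXD-6/TyJ (157 and 174.3) and CE/J (116, 188 and 217) came next. The highest, after BXD-12/TyJ (whose mice other than OB-547 had at most 280), was BXD-19/TyJ with 273.4, 449 and 611 FPKM. BXH-9/TyJ had 269.7, 306.7 and 537, KK/HlJ had 312.5, 324 and 429, and CXB-12/HiAJ had 323.15, 337 and 402 FPKM. KK/HlJ was thus near the top for both hormones. The lowest 5 strains for Avp and for Oxt had no strain in common. Sets of 5 out of 99 strains would mostly share none even in unrelated orders, and the overlap was not tested.

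The strain sets overlapped widely. By median over mice, Avp ran from 189 FPKM in BXH to 231 in the classical inbred strains, and Oxt from 220 in the inbred strains to 241 FPKM in AXB/BXA. Within AXB/BXA the strain share of Avp was 0.549 and that of Oxt 0.0849. Within BXD the shares were 0.249 and 0.218 (0.329 and 0.279 without OB-547), and in the inbred strains 0.340 and 0.168. In CXB the Avp share was -0.0370, which means that mice of a strain differed as much as mice of different strains, and the Oxt share was 0.254. Without OB-422 the CXB shares were -0.161 and 0.553. Whether the shares of the 2 genes differ was not tested.

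The parents of the recombinant inbred sets were compared with C57BL/6J, which is the shared control of all 4 contrasts. BALB/cJ stands here for the BALB/c parent of CXB, whose substrain the labels do not give. The C57BL/6J mice had 195, 224.4 and 290.96 FPKM of Avp and 220, 256 and 393 FPKM of Oxt. A/J had 152, 170.8 and 180 FPKM of Avp, all below the C57BL/6J mice, and 183, 210 and 215 FPKM of Oxt, also all below. Yet neither difference passed: A/J minus C57BL/6J was -0.48 ± 0.37 (SE, log2) for Avp with a 95% interval of -1.20 to 0.24 (limma, adjusted p = 0.521), and -0.47 ± 0.35 for Oxt, from -1.16 to 0.21 (adjusted p = 0.633). C3H/HeJ had Avp levels of 210, 231 and 256 FPKM, in the range of C57BL/6J, with a difference of -0.01 (-0.73 to 0.71). Its Oxt levels, 183, 195 and 217 FPKM, were all below those of C57BL/6J, and the difference of -0.50 had an interval of -1.19 to 0.18 (adjusted p = 0.608). BALB/cJ and DBA/2J overlapped with C57BL/6J for both genes, with differences of -0.28 (-1.01 to 0.44) and 0.10 (-0.62 to 0.82) for Avp and -0.40 (-1.09 to 0.29) and -0.17 (-0.86 to 0.52) for Oxt. In the same order (DBA/2J, A/J, BALB/cJ, C3H/HeJ), 6.85%, 7.98%, 6.75% and 7.56% of genes and 2.92%, 3.19%, 2.79% and 2.91% of start sites passed.

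The balance between the hormones differed between strains more clearly than either level. The Oxt to Avp ratio had a strain share of 0.473 (permutation test of the F ratio over strain labels, p = 1e-05, the smallest that 100000 resamples can give). Its SD within strains was 0.31 (log2), below the 0.46 and 0.43 of the single genes, and 28.9% of pairs of strains differed by over 2 standard errors. The share was 0.472 without OB-547 and 0.452 without the 18 libraries. Within the sets, the ratio share was above those of both genes in BXD (0.525) and in the inbred strains (0.481). It was below that of Avp in AXB/BXA (0.385 against 0.549) and in BXH (0.280 against 0.319). In CXB it was below that of Oxt (0.0381 against 0.254). The larger share for the ratio than for Avp or Oxt over all strains is a description, since the difference of shares was not tested.

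In CE/J the ratio was 0.470, 0.495 and 0.686, and in BXD64 it was 0.394, 0.621 and 0.646, so vasopressin mRNA exceeded oxytocin mRNA in all 6 mice. SJL/J (0.578 and 0.727), KK/HlJ (0.547, 0.733 and 0.773) and BXD60 (0.551, 0.674 and 0.876) followed, again with every mouse below 1. At the other end CXB-7/ByJ had ratios of 1.48, 1.63 and 2.06 and BXD62 had 1.56, 1.59 and 1.65. BXA-12/PgnJ had 1.54 and 1.56, AXB-13/PgnJ had 1.32, 1.65 and 1.70, and BXH-19/TyJ had 1.53 and 1.55. Of these 5 strains, 3 are also among the 5 lowest for Avp (AXB-13/PgnJ, BXA-12/PgnJ and CXB-7/ByJ), and of the 5 strains with the lowest ratio, 3 are among the 5 highest for Avp (KK/HlJ, BXD60 and BXD64). Since the ratio is built from the Avp level, such an overlap is partly built in. BXD62 is a strain whose 3 libraries are among the 18 above.

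**Figure D2:**
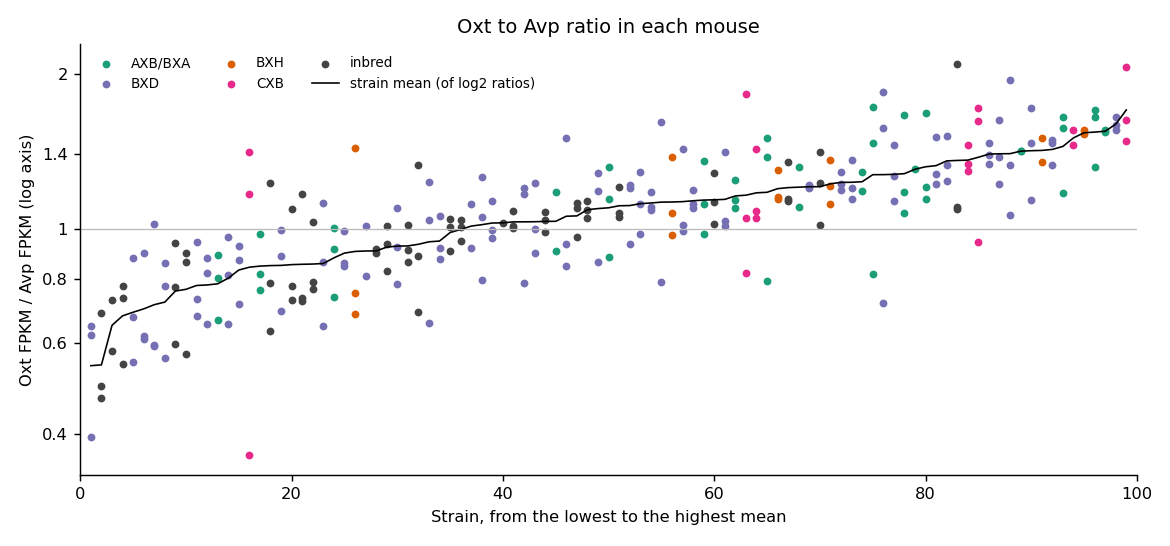
Oxt to Avp ratio of FPKM in each mouse, on a log axis, with the 99 strains ordered by their mean log2 ratio (black line) and coloured by strain set. The grey line marks equal levels, and every mouse of the 5 lowest strains is below 1 and every mouse of the 5 highest strains above it.

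Avp and Oxt varied together. Over 99 strain means of log2(FPKM + 1), Pearson's r was 0.549 and Spearman's coefficient 0.506 (permutation test, 2-sided, p = 1e-05 for both, the smallest that 100000 resamples can give). Without BXD-12/TyJ and KK/HlJ, the 2 strains farthest from the median of Avp, r was 0.446, and without mouse OB-547 alone it was 0.482. Within strains, as deviations of mice from the means of the 97 strains with at least 2 mice, r was 0.757 and Spearman's coefficient 0.708 (permutation within strains, p = 1e-05), and 0.691 and 0.698 without OB-547. In 79.9% of these mice both genes deviated from the strain mean in the same direction. After quantile normalization of the libraries r was 0.472 over strain means and 0.673 within strains. After both genes were adjusted for the marker levels of the anterior pituitary, the choroid plexus and the thalamus, r was 0.541 over strain means and 0.742 within strains. Within strains the summed pituitary and choroid plexus levels had r between -0.0298 and 0.0436 with the hormones, so adjusting for them could change little. The hypothalamic markers (summed, r = 0.494 with Avp and 0.536 with Oxt) and the blood markers were not adjusted for. How much of the relation comes from shared tissue content was not tested.

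Within the strain sets the relation over strain means had to stand on fewer strains. It held in AXB/BXA (r = 0.761, 18 strains, permutation p = 0.00023, adjusted over 5 sets 0.000417), in BXD (r = 0.568, 43 strains, p = 0.00012, adjusted 0.000417) and in the inbred strains (r = 0.664, 25 strains, p = 0.00025, adjusted 0.000417). Without OB-547 the BXD value was 0.394. Without the 2 farthest strains r was 0.713 in AXB/BXA, 0.388 in BXD and 0.588 in the inbred strains. The 6 BXH and 7 CXB strains gave r = 0.723 (exact permutation p = 0.119) and 0.612 (exact permutation p = 0.149). Without their 2 farthest strains r was 0.631 in CXB and turned to -0.203 in BXH, where it rests on those strains.

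**Figure D3:**
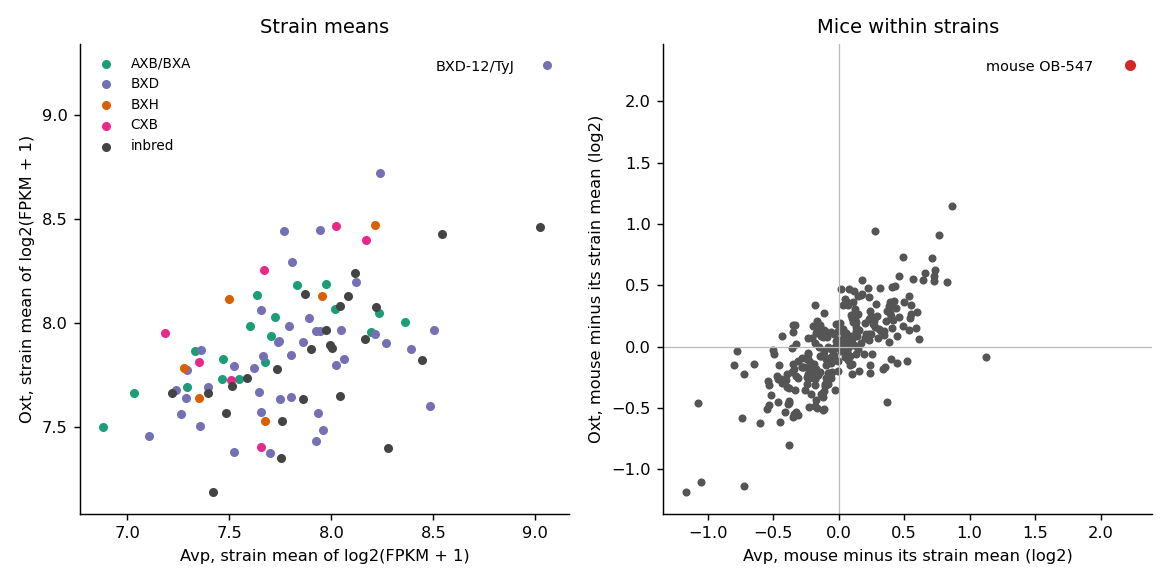
Left, strain means of log2(FPKM + 1) of Oxt against Avp for 99 strains, coloured by strain set, with BXD-12/TyJ at the upper right. Right, the deviation of each mouse of 97 strains from its strain mean (log2) for Oxt against Avp, with OB-547 in red; Pearson's r was 0.549 on the left and 0.757 on the right.

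At the level of transcripts, each gene had 1 known form and unannotated forms from the merged assembly. The known Avp transcript had a mean of 164 and the unannotated TCONS_00208077 of 69.8 FPKM, while the other 4 Avp forms had means of 0.462 to 1.05 FPKM. TCONS_00208077 starts 141 bases upstream of the known start and differs from it by a shift of the second intron by 3 bases. The 4 minor forms start 146 to 284 bases upstream, each with 1 intron shifted by 1 to 4 bases. For Oxt the known transcript had a mean of 165, TCONS_00194415 of 58.3 and TCONS_00194414 of 28.7 FPKM. These forms start 31 and 35 bases upstream, and in each 1 intron is moved by a single base at both ends, which leaves its length as it was. A further transcript, TCONS_00194413, is named Mrps26 but runs from 130563742 to 130577054 and so spans Oxt. It had a mean of 7.76 FPKM.

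How the Oxt level was split among its forms followed the kind of library. TCONS_00194415 was listed at 0 in all 18 libraries with over 10000 unannotated isoforms at 0 and in none of the others, and TCONS_00194414 was at 0 in 15 of the 18 and in none of the others. The unannotated forms together made up 0 to 1.07% of Oxt in the 18 libraries and 7.70% to 52.0% (median 36.3%) in the others, so the groups did not overlap. In all, 233 transcripts were at 0 in exactly those 18 libraries and above 0 in all others. The total was not split in this way: Oxt ran from 122 to 368 FPKM (median 218) in the 18 and from 90.7 to 2963 (median 233) in the others, and Avp from 138 to 407 (median 205) and from 69.7 to 2493 (median 219). TCONS_00208077 was at 0 in none of the 18, where it made up a median of 26.4% of Avp, against 29.2% in the others. The 3 mice of BXD87 show both kinds within a strain. OB-995 and OB-996 had 41.3% and 42.9% of Oxt in unannotated forms, with totals of 198 and 191.4 FPKM, and OB-997, one of the 18 libraries, had 0% of a total of 314 FPKM. For the other 6 strains every library was of this kind, so strain and library cannot be told apart there.

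**Figure D4:**
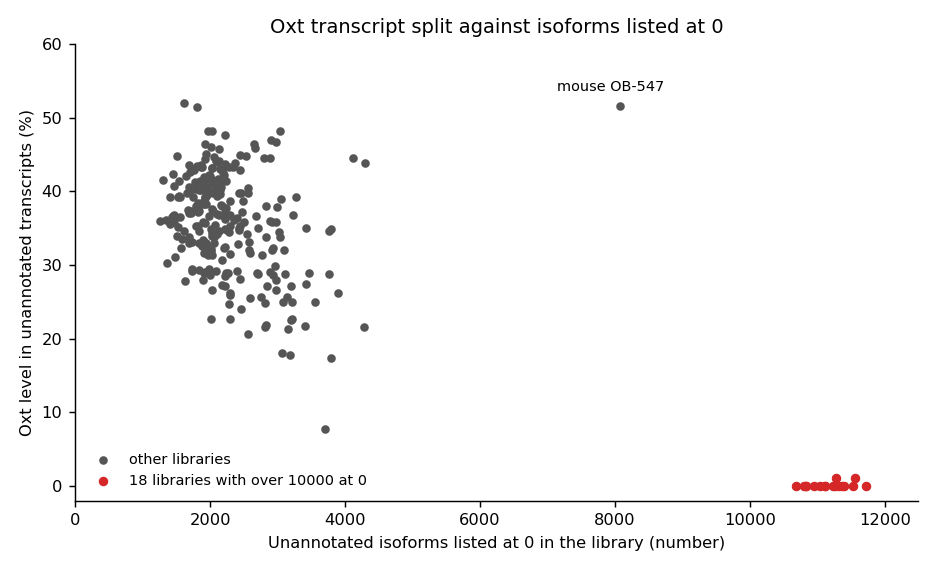
Percent of the Oxt level in its 2 unannotated transcripts, in each library, against the number of unannotated isoforms listed at 0 in that library. The 18 libraries with over 10000 isoforms at 0 (red) lie between 0 and 1.07%, and the others (grey) between 7.70% and 52.0%.

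The strain test of the transcripts changed with these libraries. With all libraries, 45.9% of transcripts passed, and the strain share was 0.834 for TCONS_00194415 (limma, adjusted p = 9.96e-52) and 0.655 for TCONS_00194414 (adjusted p = 4.44e-26). Without the 18 libraries 25.7% of transcripts passed, and the shares were 0.0898 (adjusted p = 0.186) and 0.151 (adjusted p = 0.0401). By contrast the known Oxt transcript had a share of 0.262 with them (adjusted p = 0.000114) and 0.218 without (adjusted p = 0.00377). The main Avp forms moved little, from 0.301 to 0.302 for the known transcript and from 0.285 to 0.273 for TCONS_00208077, and all 4 values passed. With 1 mouse fewer per strain, the known Oxt transcript failed in 1 of 3 settings (share 0.142, adjusted p = 0.229), the known Avp transcript in 1 of 3 (0.227, adjusted p = 0.0664) and TCONS_00208077 in 2 of 3 (0.154 and 0.218, adjusted p = 0.192 and 0.0685). None of the minor Avp forms passed. TCONS_00208081 came nearest (share 0.121, adjusted p = 0.0528), and the other 3 had shares of -0.0691 to 0.0282.

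Genes whose level followed that of each hormone were sought across the whole table, by fitting each of the other 14078 loci on the log2 level of Avp or Oxt. A following gene here is one that passed at an adjusted p of 0.05, and r is the partial correlation. Over strain means, 803 genes rose with Avp (5.7%) and 380 fell (2.7%), or 8.4% of those tested, but without OB-547 only 5 rose (0.0355%) and 1 fell (0.0071%), or 0.0426% (1925 at an unadjusted p under 0.05). All 6 were also among the 1183 genes that passed with OB-547 in the set. With Oxt, 2086 genes rose (14.8%) and 1813 fell (12.9%), or 27.7%, and without OB-547 4.42% rose and 5.13% fell, or 9.55%. Within strains the counts were much larger: 4622 rose (32.8%) and 3737 fell (26.5%) with Avp, or 59.4%, and 5128 rose (36.4%) and 4141 fell (29.4%) with Oxt, or 65.8%. Without OB-547 16.6% rose and 15.6% fell with Avp within strains (32.3%), and 26.8% rose and 21.7% fell with Oxt (48.6%). The split between rising and falling genes depended on the scaling of the libraries. After quantile normalization 13.8% rose and 16.8% fell with Avp within strains (30.7%), and 24.1% rose and 25.5% fell with Oxt (49.6%). Over strain means the same gave 0.0355% and 0.0071% with Avp (0.0426%) and 4.84% and 6.51% with Oxt (11.4%). A share this large means that passing the test within strains sets no gene apart, so r is read below against its median over all genes, which was 0.0327 with Avp and 0.0424 with Oxt.

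Over strain means the locus row that holds Oxt had the highest r with Avp, 0.564, and 0.495 without OB-547. Mrap2, an accessory protein of the melanocortin receptors whose loss causes obesity in mice, had r = 0.517 and was second without OB-547 at 0.455. Syf2 (0.518), a splicing factor, Timm8b (0.505), a mitochondrial import chaperone, Arhgdig (0.488) and Gm11974 (0.471) were also among the 8 highest and among the 6 highest without OB-547. Sod1, the cytosolic superoxide dismutase (0.477), and 1110065P20Rik (0.462) fell to places 19 and 23. With Oxt the 8 highest were Pithd1 (0.639), Caly (0.618), Tmem179, Ap2s1, the row of Cox17 and Gm21987, Rps12, Tceb2 and the row of Abtb1 and Podxl2 (0.598). Without OB-547 only Pithd1 (0.531) and the row of Cox17 and Gm21987 (0.501) stayed among the first 8, and Trh then led with 0.566.

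Within strains the gene most like Avp was again the locus row of Oxt (r = 0.765), followed by Ndn (0.698), 6330403K07Rik (0.676), Ly6h (0.656), Vat1 (0.644), Bex1, Maged1 and Pnck (0.624). Ndn encodes necdin, an imprinted neuronal protein whose gene lies in the region lost in Prader-Willi syndrome, and Maged1 is of the same protein family. With Oxt the order was Ly6h (0.854), Ndn (0.836), Maged1 (0.804), 6330403K07Rik (0.803), Prmt2 (0.793), the row of Abtb1 and Podxl2 (0.790), Gal (0.781) and Vat1 (0.781). Without OB-547 Ly6h and Ndn still led for Oxt, with 0.807 and 0.781. Of the first 8, 5 stayed among the first 8 for each hormone. After quantile normalization of the libraries the r with Oxt was 0.772 for Ly6h, 0.612 for Ndn and 0.385 for Maged1.

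The 14 measured loci within 500 kb were examined as neighbours. Strain differences passed in 8 of the 14 (74.9% of all genes), with a median share of 0.155 against 0.221 over all genes. Itpa, which hydrolyses inosine triphosphate, had the highest share of them, 0.661, above both Avp and Oxt. Over strain means 1 neighbour rose with Avp, Ddrgk1 (r = 0.320), and none without OB-547. With Oxt 5 rose and 3 fell (14.8% and 12.9% of all genes), and none did so without OB-547. Within strains and without OB-547, 5 rose and 2 fell with Avp (16.6% and 15.6% of all genes) and 9 rose and 2 fell with Oxt (26.8% and 21.7%), among them Ebf4, a transcription factor (0.302 and 0.443), and Atrn, attractin, which fell (-0.352 and -0.461).

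Of the 4 receptors, Avpr1a and Oxtr were in the table, while the vasopressin receptors Avpr1b and Avpr2 were not among the rows. Avpr1a, the main brain receptor for vasopressin, was at a median of 1.34 FPKM (0.580 to 5.56), and Oxtr, the oxytocin receptor, at 1.90 FPKM (1.07 to 3.43), both far below their ligands. Strains differed in both, with shares of 0.250 for Avpr1a and 0.387 for Oxtr. Of all genes 74.9% passed this test, with a median share of 0.221. Neither followed its ligand over strain means, with r = 0.118 for Avpr1a with Avp (adjusted p = 0.486 by limma) and 0.159 for Oxtr with Oxt (adjusted p = 0.24). Within strains Oxtr rose with Oxt (r = 0.298, and 0.243 without OB-547), as did 36.4% of all genes, and 26.8% without OB-547. Avpr1a had r = 0.0921 with Avp and did not pass.

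The enzymes that turn the precursors into hormones did not move as a group. Of 11 genes of precursor processing and secretory granules, 5 rose and 2 fell with Oxt within strains (36.4% and 29.4% of all genes), and 2 rose and 3 fell without OB-547 (26.8% and 21.7%). Their median r without OB-547 was 0.110, against 0.0231 over all genes. Those that rose in both settings were Pcsk1n, a granin-like inhibitor of prohormone convertase 1 (0.732 and 0.628), and Pam, the enzyme that amidates the last residue of both hormones (0.374 and 0.317). Quantile normalization left Pcsk1n at 0.561 but Pam at 0.135, which did not pass. Those that fell in both were Pcsk2, the prohormone convertase 2 (-0.479 and -0.428), and Cadps, needed for dense-core vesicle release (-0.600 and -0.445). Cpe, carboxypeptidase E, which trims the cleaved peptides and was at a median of 1000 FPKM, depended on OB-547: its r with Oxt was 0.0600 with that mouse and did not pass, and -0.329 without it, where it fell. Both peptidases on the list fell with Oxt within strains and without OB-547, Lnpep, the aminopeptidase also called oxytocinase (-0.398), and Prep, prolyl endopeptidase (-0.427). With Avp they had -0.313 and -0.318 and fell too. Of all genes 21.7% fell with Oxt in this setting and 15.6% with Avp.

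Of 5 transcription factors of paraventricular and supraoptic neurons, 4 were measured. Within strains 3 rose and 1 fell with each hormone, and 3 rose and 0 fell without OB-547. Of all genes 36.4% rose and 29.4% fell with Oxt, and 32.8% and 26.5% with Avp. Without OB-547 it was 26.8% and 21.7% with Oxt, and 16.6% and 15.6% with Avp. Otp, which is also counted among the hypothalamic markers, was the factor most like both hormones. Its r within strains was 0.638 with Oxt and 0.522 with Avp, and 0.670 and 0.529 without OB-547. Arnt2, the dimerization partner of Sim1, rose with both (0.472 and 0.419; 0.362 and 0.307 without OB-547), but had 0.158 with Oxt and 0.177 with Avp after quantile normalization and then did not pass. Creb3l1, a factor that activates Avp, was at a median of 2.24 FPKM and had r = 0.284 with Avp and 0.246 with Oxt. Pou3f2, also called Brn2, fell with both hormones with OB-547 in the set (-0.334 with Oxt) and did not pass without it (-0.0776). Sim1 itself was not among the rows.

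The other peptides of paraventricular and supraoptic neurons had the highest median r of the lists, except with Avp after quantile normalization, where they had 0.380 and the hypothalamic markers 0.388. With Oxt within strains and without OB-547, 7 of 9 rose and 1 fell (26.8% and 21.7% of all genes), with a median r of 0.434 against 0.0231 over all genes. They were Trh, thyrotropin-releasing hormone (0.744), Gal, galanin (0.724), Sst (0.678), Cartpt, the precursor of CART peptide (0.523), Pdyn, prodynorphin, which magnocellular vasopressin neurons also make (0.434), Penk, proenkephalin (0.389), and Crh (0.362). Cck, cholecystokinin, fell (-0.216), and Adcyap1 did not pass. With Avp the same comparison gave 6 up and 1 down (16.6% and 15.6% of all genes) and a median of 0.409, with Pdyn highest at 0.558. Of the 7 that rose with Oxt, Pdyn alone had a higher r with Avp than with Oxt, a difference that was not tested. Over strain means 7 of the 9 also rose with Oxt, with and without OB-547, as did 14.8% and 4.42% of all genes. Among them were Trh (0.566), Pdyn (0.522), Sst (0.455) and Gal (0.424), all without OB-547. With Avp over strain means and without OB-547, Gal came nearest to passing (r = 0.401, adjusted p = 0.0583 by limma).

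Of 9 peptides of other hypothalamic neurons, 7 rose and none fell with each hormone within strains and without OB-547, where 16.6% of all genes rose with Avp and 26.8% with Oxt. They had median r of 0.290 for Avp and 0.283 for Oxt. With Oxt, Hcrt had 0.459, Nts, neurotensin, 0.459, Ghrh, growth hormone-releasing hormone, 0.429, the row of Agrp and Atp6v0d1 0.417 and Pmch 0.283. The row of Agrp and Atp6v0d1 had 0.136 with Oxt after quantile normalization and did not pass.

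Tissue markers moved in the same fits. Of 6 hypothalamic markers, 5 rose and none fell with each hormone within strains (32.8% of all genes rose with Avp and 36.4% with Oxt), and the summed log2(FPKM + 1) of the 6, which ran from 12.2 to 20.0 over mice, had r = 0.494 with Avp and 0.536 with Oxt. All 5 thalamic markers fell with Oxt (29.4% of all genes), at a median of -0.368, and -0.415 without OB-547. With Avp 3 of 5 fell (26.5% of all genes), and all 5 without OB-547 (15.6% of all genes). Tcf7l2 had r = -0.408 with Oxt. The summed thalamic level ran from 10.3 to 28.8 and had r = -0.236 with Avp and -0.322 with Oxt. None of 6 pituitary and none of 5 choroid plexus markers passed with either hormone, and the summed levels had r between -0.0298 and 0.0436 within strains. Of 5 blood markers 4 rose with Oxt and 2 with Avp, and without OB-547 0 rose with either. With the summed marker levels of the anterior pituitary, the choroid plexus and the thalamus as covariates, 8622 genes followed Avp and 9593 followed Oxt within strains, against 8359 and 9269 without covariates. Over strain means it was 1223 and 3634 genes, against 1183 and 3899. The part of blood and of the hypothalamic markers in these counts was not tested.

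**Figure D5:**
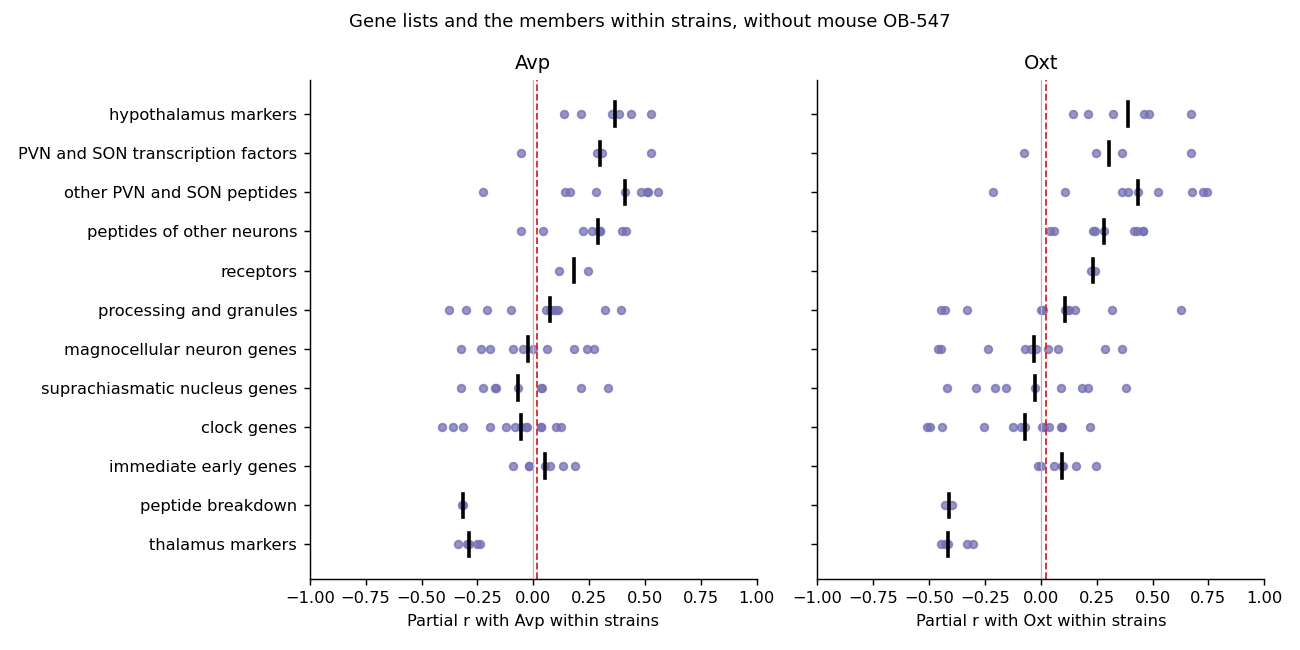
Partial r of each listed gene with Avp (left) and Oxt (right) within strains, without mouse OB-547; each point is a gene, each black bar the median of its list and the red dashed line the median of all 14078 genes. PVN and SON are the paraventricular and supraoptic nuclei, whose other peptides had medians of 0.409 and 0.434, while the thalamic markers had -0.286 and -0.415.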

How the data were processed

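Libraries were made without strand information from mRNA of single hypothalami and read as pairs of 50 bases (5886672 to 23402476 read pairs, median 12989239). The deposited FPKM values were made by the authors with STAR 2.3.1 on mm10, Cufflinks 2.2.0 assembly merged with GENCODE, and Cuffquant and Cuffnorm 2.2.1, which share reads between similar transcripts by estimate. Every deposited row exceeds FPKM 0 in 100 mice or more and FPKM 1 in 50 or more. No counts are given, so depth enters no interval. All 282 columns were read, and the 2 of CXB-6/ByJ that differ by 1 factor alone were averaged to 1, which gives 281. Values were tested as log2(FPKM + 1) with limma 3.58.1 in R 4.3.3, Benjamini-Hochberg adjusted over the whole table (14079 genes, 32537 start sites or 51024 transcripts). Single values were tested by permutation (100000 resamples, exact for BXH and CXB) with scipy 1.17.1, numpy 2.4.6 and pandas 2.3.3 under Python 3.11.15, and plots were drawn with matplotlib 3.10.9. The strain test and the fits of following genes were first tested on simulated data, for genes and without covariates. The other tests were not tested in this way. Oxt was taken from its start site row because its locus row also holds Ptpra and Mrps26. Replicates are mice of a strain, and nothing in the labels says more of their housing. The members and gene lists were chosen with earlier results of these data known. Named genes are the members, the 8 with the highest r with each member over strain means and within strains, loci within 500 kb and the listed genes a result turns on. Named strains are the 5 at each end and the 5 parents. The limit of 10000 isoforms at 0 was set after the counts were seen. Promoters are from RefSeq (GRCm38.p6) and transcript sequences from GENCODE. Alternatives were other pseudocounts (0.1, 0.01), quantile normalization, a minimum mean FPKM of 1, mapping, marker or mouse number covariates, a rank test, omitted mice or libraries, and both CXB-6/ByJ columns as 2 mice (chosen after seeing the data). Mouse OB-627 was also placed in AXB-8/PgnJ or in AXB-6/PgnJ.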

Additional observations from a re-analysis of the deposited data

Results flagged for a closer look

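Among the 6 BXH strains, the strain mean of the percent of Oxt in unannotated transcripts was lowest in BXHA1, and its gap to the next strain was 0.933 of the whole range of the 6 means. Such a gap is larger than the 95% critical value of Dixon's test for a single sample far from the others. Of 8 groups examined in this way 1 was picked out, and chance alone picks out about 1 in 20. Both libraries of BXHA1 are among the 18 with over 10000 unannotated isoforms listed at 0, and no other BXH library is.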

How the results depend on the processing

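Over 25 results, 360 alternatives kept direction, side of the threshold and, for counts, stayed within 1.5 times the value, 17 moved, 9 lost the call and 6 changed sign. No paired analysis was possible because replicate numbers follow accession order and pair no mice across strains. With 1 mouse fewer per strain the share of Avp was 0.185 to 0.393 (adjusted p up to 0.0685, limma) and that of Oxt 0.134 to 0.210 (adjusted p 0.0701 to 0.161). Genes, start sites and transcripts that differed between strains then numbered 6421 to 8641, 8476 to 11585 and 12367 to 16851, against 10547, 16132 and 23401. Fewer samples are part of that construction. Without the 18 libraries, chosen after seeing the data, 13110 transcripts passed. No parent contrast passed in any of 128 alternatives, and those that changed sign were small: Avp in DBA/2J -0.22 (leaving out 1 mouse each, -0.22 to 0.37), Avp in C3H/HeJ 0.091 with marker covariates, 0.23 with mouse number and -0.21 to 0.15 leaving out 1 mouse each, and Oxt in DBA/2J -0.49 to 0.18. Genes that followed Avp over strain means fell from 1183 to 6 without OB-547 and to 6 with quantile normalization, and were 1200 to 2983 with 1 mouse fewer per strain. For Avp within strains they were 8359, then 4542, 4316 and 3889 to 7456. For Oxt over strain means they were 3899, then 1344, 1599 and 2758 to 6319. For Oxt within strains the leave-out range was 5752 to 8317, against 9269. The causes were not tested. Other choices were made after seeing the data as well. Leaving out mice OB-547 and OB-422 changed no call of Avp, Oxt or their ratio. Known transcripts alone were used for the Avp and Oxt correlations and the strain share of their ratio and changed no call there. Counting both CXB-6/ByJ columns as 2 mice changed no call or direction of the 25 results, though TCONS_00208081 then passed (share 0.124, adjusted p = 0.0463, limma).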

Other observations

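Of 10 measured genes of magnocellular neurons, 3 rose and 3 fell with Avp within strains and without OB-547 (16.6% and 15.6% of all genes), and 2 rose and 3 fell with Oxt (26.8% and 21.7% of all genes). The median r was -0.0234 and -0.0321. Those that rose with Oxt were Trpv2, a cation channel (0.365), and Nucb2, the precursor of nesfatin (0.289), while Slc17a6, the vesicular glutamate transporter of excitatory neurons, fell (-0.459). Slc12a2, a chloride importer, fell with Oxt (-0.447) and less with Avp (-0.233). The difference was not tested.

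Of 9 suprachiasmatic genes in the same fit, 2 rose and 2 fell with Avp, and 3 rose and 3 fell with Oxt, beside the same shares of all genes. Vip, vasoactive intestinal peptide of suprachiasmatic neurons, at a median of 3.68 FPKM, had r = 0.335 with Avp and 0.383 with Oxt, and Rorb, a nuclear receptor of the clock, which is also expressed in the thalamus, had -0.322 and -0.421. Of 13 clock genes 4 fell with Avp and 0 rose, and 4 fell and 1 rose with Oxt, again beside those shares. Nr1d2 (-0.408 and -0.508) and Hlf (-0.357 and -0.497) fell with both, and Per2 rose with Oxt (0.218) but had 0.117 after quantile normalization and did not pass. Over strain means without OB-547, 2 clock genes fell with Oxt, Clock (-0.323) and Hlf (-0.388), of 5.13% of all genes. Of 7 immediate early genes Fosl2 alone rose, with both (0.188 and 0.245), and Fos had 0.0530 and 0.0598. Of all genes 16.6% rose with Avp and 26.8% with Oxt.

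Mouse OB-627, whose labels name 2 strains, had 229.9 FPKM of Avp and 257 FPKM of Oxt, both near the medians of all mice.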
